A study of Mus musculus with 24 samples.

Results

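The LIF receptor and STAT3 pathway was followed through 10 genes, chosen by name and matched to the gene identifiers of the deposited tables through GENCODE M21. They are the ligand gene Lif, the receptor genes Lifr, Il6st and Osmr, the kinase genes Jak1 and Jak2, the transcription factor gene Stat3, the inhibitor gene Socs3 and the target genes Pim1 and Pim3. They are 10 of 53379 genes in the tables, and all 10 passed the filter on low counts that kept 19470 genes for testing. RNA was sequenced from mouse E14 cells (line E14Tg2a.IV) in 5 groups of 2 libraries. The groups were embryoid bodies at day 4 labelled Smad2/3 double knockout, Smad2 knockout and Smad3 knockout, embryoid bodies at day 4 from wild type (WT) cells, and WT embryonic stem cells at day 0. All groups share the E14 background, and no day 0 library of a knockout was analysed. Each knockout carries 1 line number in the deposited names, so the effect of a lost gene and of that line cannot be told apart. Whether both libraries of 1 group had cultures of their own is not labelled, and the spread behind each p-value may therefore be technical. The products of Smad2 and Smad3 relay signals of the Nodal, Activin and TGF-beta ligands to the nucleus. The other 14 samples of the series, of chromatin immunoprecipitation, were not analysed here.

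LIF is a cytokine of the interleukin 6 family. It binds the LIF receptor, which pairs with gp130, the product of Il6st, and the JAK kinases bound to these receptors phosphorylate STAT3. STAT3 then enters the nucleus and turns on genes that include Socs3, whose product blocks the receptor and its kinases, and the Pim kinase genes. Mouse embryonic stem cells are kept in the naive state by LIF, and embryoid bodies are aggregates in which they differentiate once LIF is withdrawn. The labels name medium without LIF for the embryoid bodies made for chromatin immunoprecipitation.

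Promoter sequence is shown for Socs3, Lif and Stat3, the genes of the feedback inhibitor, the ligand and the transcription factor that the comparison of the double knockout with WT turns on. STAT3 dimers are known to bind palindromes of the form TTCNNNGAA, and this motif was sought on both strands in the 300 bases around each RefSeq start (250 before and 50 after). All 10 genes matched the RefSeq promoter table, with 12 windows in all, since Lifr and Pim1 have 2 each. The motif was found in 1 of the 12 windows, that of Socs3, and in 8.3% of 32851 windows of the same length over all genes. CAGACA, which holds the core that SMAD proteins bind, was in 1 Lifr window and in 21.0% of all, and AATNCACA, a FOXH1 motif, was in none of the 12 and in 3.6% of all. A match describes letters only, and binding was not measured in the data used here. In the RefSeq sequences below (GRCm38.p6, the same assembly as mm10) capitals mark the TTCNNNGAA match, and exon bases were left out. The Socs3 stretch, chr11:117969452-117969616 on the minus strand, runs from 250 to 86 bases before the RefSeq start and lies within the longer GENCODE M21 gene but in no exon. The Lif stretch is chr11:4257318-4257556 on the plus strand, and the Stat3 stretch is chr11:100939541-100939790 on the minus strand. The match in Socs3 lies 154 to 146 bases before its RefSeq start.
Socs3: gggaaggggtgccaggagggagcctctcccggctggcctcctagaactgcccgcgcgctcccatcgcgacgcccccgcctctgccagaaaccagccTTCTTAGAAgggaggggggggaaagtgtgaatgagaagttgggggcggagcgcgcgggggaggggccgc
Lif: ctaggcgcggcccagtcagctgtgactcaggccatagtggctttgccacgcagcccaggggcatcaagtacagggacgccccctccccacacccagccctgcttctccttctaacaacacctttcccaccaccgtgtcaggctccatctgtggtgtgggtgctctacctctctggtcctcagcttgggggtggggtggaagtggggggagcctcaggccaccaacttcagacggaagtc
Stat3: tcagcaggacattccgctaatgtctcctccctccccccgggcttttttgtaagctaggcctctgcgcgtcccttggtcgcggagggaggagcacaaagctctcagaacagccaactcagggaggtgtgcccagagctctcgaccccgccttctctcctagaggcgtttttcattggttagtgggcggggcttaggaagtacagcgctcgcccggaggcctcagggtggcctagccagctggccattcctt

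Depth was 35733249 to 53672980 expected counts per library. Levels are given as CPM (counts scaled to a common library total, with TMM factors) within a gene, and as TPM (which also divides by transcript length) between genes. Smad2 RNA stood at 22.2 and 22.7 CPM in the double knockout, 19.2 and 20.4 CPM in the Smad2 knockout, and 49.9 and 38.3 CPM in WT at day 4. Smad3 RNA stood at 49.7 and 48.7 CPM in the libraries labelled Smad3 knockout, against 42.0 and 44.9 CPM in WT at day 4. It therefore did not check that label, and Smad3 knockout names these libraries by their label throughout. Smad3 RNA of the double knockout is not given here, so only Smad2 RNA was set beside the double knockout label. The log2 fold changes of all tested genes ran with transcript length in some comparisons. Spearman's rho across 19470 genes, which are not independent replicates, was -0.50 for the Smad2 knockout against WT and 0.47 for WT day 4 against day 0, and it was -0.01 for the double knockout against WT and -0.07 for the Smad3 knockout against WT. The 10 genes are mostly long: the deposited length averaged 7932 bases for Lifr, 6088 for Il6st, 4996 for Jak2 and 4848 for Jak1, and 2419 for Pim3, the shortest. A fit with a length offset is therefore given, for the 10 genes only, where it ends a call or turns a sign. Naive stem cell markers (Zfp42, Esrrb, Klf2, Nr0b1 and Dppa3) were present in every library.

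Socs3 and Jak2 differed most between WT day 4 and WT day 0, and Lif differed most between the double knockout and WT. Over the 10 libraries the CPM of Socs3 spanned 24.1-fold, that of Lif 6.75-fold, and those of Pim1, Lifr, Il6st and Stat3 2.23-fold to 2.53-fold. On the TPM scale Pim3 was the most abundant of the 10 genes in every library but WT day 4 replicate 1 (25.2 to 84.2 TPM), Socs3 ran between 3.99 and 56.9 TPM, and Osmr was the scarcest (0.03 to 0.45 TPM).

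**Figure D1:**
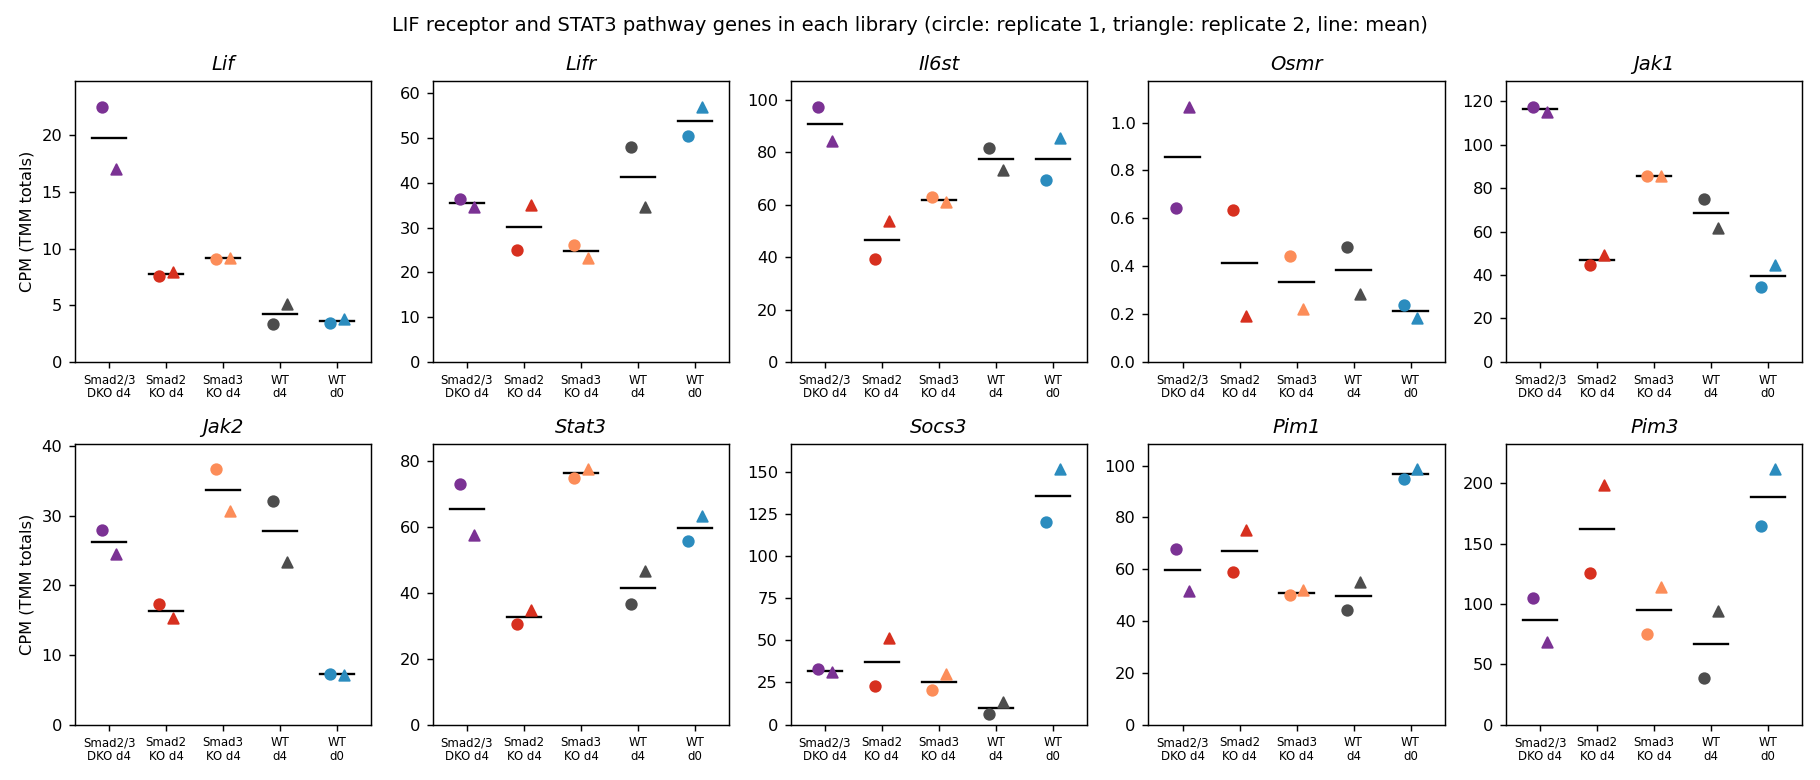
Level of each of the 10 genes in every library, in CPM on TMM-scaled totals (vertical axes, each starting at 0), by group (horizontal axes). Circles are replicate 1, triangles replicate 2 and lines the mean of 2; Socs3 stands at 6.29 and 13.3 CPM in WT at day 4 and at 120 and 151 CPM at day 0, with the knockouts between them, and Lif is highest in the double knockout at 22.5 and 17.0 CPM.

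Lif, the ligand gene, stood at 22.5 and 17.0 CPM in the double knockout, 7.57 and 7.96 CPM in the Smad2 knockout, 9.06 and 9.20 CPM in the Smad3 knockout, 3.34 and 5.13 CPM in WT at day 4, and 3.47 and 3.82 CPM in WT at day 0. Every knockout library lay above every WT library, and the double knockout lay above the single knockouts. In the double knockout Lif rose 4.67-fold relative to WT at day 4, with a log2 fold change of 2.22 (SE 0.27) and an edgeR adjusted p of 0.000504. That call held when any 1 of the 10 libraries was left out (2.00 to 2.56 on the log2 scale). The double knockout also exceeded the Smad2 knockout by 1.35 (SE 0.26, edgeR adjusted p = 0.0039) and the Smad3 knockout by 1.12 (SE 0.26, edgeR adjusted p = 0.018). The second of these was lost without either double knockout library (adjusted p = 0.15 without replicate 1 and 0.0519 without replicate 2) or either Smad3 knockout library (0.133 without replicate 1 and 0.13 without replicate 2). In the Smad2 knockout Lif rose relative to WT by 0.87 (SE 0.26, edgeR adjusted p = 0.0277), a call lost in 5 of the 10 leave-one-out fits (adjusted p up to 0.0846, without WT day 4 replicate 1; the others were without either Smad2 or Smad3 knockout library) and on the TPM scale (0.08, adjusted p = 0.81). Against all genes, whose median moved by -0.51 on that scale, the value was 0.59. Set against WT, the Smad3 knockout had a Lif log2 difference of 1.11 (SE 0.26, edgeR adjusted p = 0.0932). The deposited names form a first and a second series, which the labels do not call a batch, and the Lif difference was 1.41 within the first and 0.83 within the second (adjusted p = 0.0606 with the series as a block). In WT at day 4 the Lif difference from day 0 was 0.22 (SE 0.26, edgeR adjusted p = 0.505). The TPM values called it higher (0.71, limma on log2(TPM + 1), adjusted p = 0.0352), and relative to the median of all genes it was 0.075. With the length offset the sign was the opposite. Lif is a scarce transcript, with 116 to 1085 expected counts per library.

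Over the 10 libraries the CPM of the receptor genes Lifr and Il6st spanned less than that of Lif, 2.46-fold and 2.49-fold. Lifr, which encodes the LIF-binding subunit, stood at 36.4 and 34.5 CPM in the double knockout, 24.9 and 35.1 CPM in the Smad2 knockout, 26.2 and 23.2 CPM in the Smad3 knockout, 48.1 and 34.7 CPM in WT at day 4, and 50.6 and 57.0 CPM in WT at day 0. The double and Smad2 knockout libraries overlapped those of WT at day 4, and those of the Smad3 knockout lay below them. Lifr was not called in any knockout against WT at day 4: the log2 differences were -0.22 (SE 0.22), -0.46 (SE 0.22) and -0.74 (SE 0.22) in the double, Smad2 and Smad3 knockouts, with edgeR adjusted p = 0.517, 0.133 and 0.152. The Smad3 knockout value of Lifr was -0.87 within the first and -0.58 within the second name series. Without WT day 4 replicate 2 Lifr was called lower in the Smad2 knockout (-0.68, edgeR adjusted p = 0.0282) and in the Smad3 knockout (-0.96, 0.0244), and with the length offset it was called higher in the Smad2 knockout (0.63, 0.0449). The TPM values called Lifr lower in the Smad2 knockout (-0.90, limma on log2(TPM + 1), adjusted p = 0.0263), and relative to the median of all genes the value was -0.39. The Lifr log2 difference of WT day 4 from day 0 was -0.38 (SE 0.22, edgeR adjusted p = 0.177). It was -1.84 with the length offset (edgeR adjusted p = 0.000194) and -0.68 without WT day 4 replicate 1 (0.0323).

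Il6st, the gene of the shared signalling subunit gp130, stood at 97.5 and 84.4 CPM in the double knockout, 39.2 and 53.8 CPM in the Smad2 knockout, 62.8 and 61.2 CPM in the Smad3 knockout, 81.9 and 73.3 CPM in WT at day 4, and 69.5 and 85.4 CPM in WT at day 0. The Smad2 knockout libraries were the lowest of all and overlapped no other group. Il6st fell in the Smad2 knockout relative to WT by 0.74 on the log2 scale (SE 0.20, edgeR adjusted p = 0.0186), but with the length offset the value was 0.18 (adjusted p = 0.47), the opposite sign. The call was also lost without WT day 4 replicate 1 (-0.60, adjusted p = 0.0642) and without Smad2 knockout replicate 1 (-0.53, 0.099). In the double and Smad3 knockouts the log2 differences of Il6st from WT were 0.23 (SE 0.20, edgeR adjusted p = 0.442) and -0.32 (SE 0.20, edgeR adjusted p = 0.43). Between WT day 4 and day 0 the difference was 0.0021 (SE 0.20, edgeR adjusted p = 0.995), and -1.25 with the length offset (adjusted p = 0.000751). The TPM values called Il6st higher at day 4 (0.87, limma on log2(TPM + 1), adjusted p = 0.0147), and relative to the median of all genes the value was 0.24.

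Osmr, the gene of the oncostatin M receptor subunit that also pairs with gp130, was close to the limit of detection, with 7 to 46 expected counts per library. It stood at 0.644 and 1.07 CPM in the double knockout, 0.636 and 0.192 CPM in the Smad2 knockout, 0.444 and 0.222 CPM in the Smad3 knockout, 0.480 and 0.285 CPM in WT at day 4, and 0.239 and 0.184 CPM in WT at day 0. Libraries of the same group differed up to several-fold. The log2 differences from WT at day 4 were 1.15 (SE 0.62), 0.09 (SE 0.65) and -0.19 (SE 0.65) in the double, Smad2 and Smad3 knockouts, with edgeR adjusted p = 0.221, 0.929 and 0.916, so no difference from WT at day 4 was detectable at this depth.

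Both kinase genes were called between some of the knockouts. Jak1, which encodes a kinase bound to gp130, stood at 118 and 115 CPM in the double knockout, 44.7 and 49.4 CPM in the Smad2 knockout, 85.5 and 85.5 CPM in the Smad3 knockout, 75.2 and 61.6 CPM in WT at day 4, and 34.3 and 44.7 CPM in WT at day 0. The double knockout libraries were the highest, and no day 4 groups overlapped. Jak1 rose in the double knockout relative to WT by 0.77 (SE 0.18, edgeR adjusted p = 0.0143), a call lost without double knockout replicate 1 (0.74, adjusted p = 0.0927) or replicate 2 (0.78, 0.0797). In the Smad2 knockout it fell by 0.54 (SE 0.18, edgeR adjusted p = 0.0426). That call was lost in 7 of the 10 leave-one-out fits (adjusted p up to 0.209, without WT day 4 replicate 1; the others were without any 1 knockout library), and the value was 0.21 with the length offset (adjusted p = 0.37). For the Smad3 knockout the Jak1 log2 difference was 0.32 (SE 0.18, edgeR adjusted p = 0.388). Jak1 rose in WT at day 4 relative to day 0 by 0.79 (SE 0.18, edgeR adjusted p = 0.00562), a call lost without WT day 0 replicate 1 (0.62, adjusted p = 0.0569), and with the length offset the value was -0.24 (adjusted p = 0.25). The Raver2 gene overlaps Jak1 on the opposite strand, and all of Raver2 had 686 to 2137 expected counts per library. If counting ignored strand, reads from bases that exons of both genes share cannot be told apart. Whether their exons overlap was not checked.

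Jak2 stood at 27.9 and 24.4 CPM in the double knockout, 17.3 and 15.4 CPM in the Smad2 knockout, 36.7 and 30.7 CPM in the Smad3 knockout, 32.1 and 23.3 CPM in WT at day 4, and 7.32 and 7.19 CPM in WT at day 0. Day 0 was the lowest group for Jak2, and the Smad2 knockout lay between it and the other groups of day 4. Jak2 rose 3.82-fold in WT at day 4 relative to day 0, with a log2 fold change of 1.94 (SE 0.21, edgeR adjusted p = 0.000163), and the call held without any 1 of the 10 libraries (1.64 to 2.15). In the Smad2 knockout it fell by 0.76 on the log2 scale relative to WT (SE 0.21, edgeR adjusted p = 0.0194). The value was 0.02 with the length offset (adjusted p = 0.959), and the call was lost without WT day 4 replicate 1 (-0.45, 0.118), Smad2 knockout replicate 1 (-0.85, 0.0504) or Smad2 knockout replicate 2 (-0.68, 0.085). In the double and Smad3 knockouts the log2 differences of Jak2 from WT were -0.08 (SE 0.20, edgeR adjusted p = 0.807) and 0.28 (SE 0.20, edgeR adjusted p = 0.519).

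Stat3, the gene of the transcription factor itself, stood at 73.0 and 57.4 CPM in the double knockout, 30.6 and 34.9 CPM in the Smad2 knockout, 74.8 and 77.4 CPM in the Smad3 knockout, 36.4 and 46.7 CPM in WT at day 4, and 55.8 and 63.4 CPM in WT at day 0. The double and Smad3 knockouts lay above WT at day 4 and the Smad2 knockout below it, with no overlap. Stat3 rose in the double knockout relative to WT by 0.65 (SE 0.19, edgeR adjusted p = 0.0372). The call was lost in 7 of the 10 leave-one-out fits, in which the value stayed between 0.46 and 0.81, with adjusted p between 0.0624 (without WT day 0 replicate 1) and 0.272 (without double knockout replicate 1). The other fits that lost it were without double knockout replicate 2, either Smad3 knockout library, WT day 0 replicate 2 or WT day 4 replicate 1. In the Smad3 knockout the log2 difference of Stat3 from WT was 0.87 (SE 0.19, edgeR adjusted p = 0.0803). Within the first name series it was 1.04 and within the second 0.73, and with the series as a block it was called (0.88, edgeR adjusted p = 0.0447). For the Smad2 knockout the Stat3 difference from WT was -0.34 (SE 0.19, edgeR adjusted p = 0.187). The TPM values called it lower (-1.22, limma on log2(TPM + 1), adjusted p = 0.00261), and relative to the median of all genes it was -0.72. With the length offset the sign was the opposite. Between the single knockouts, Stat3 was lower in the Smad2 knockout than in the Smad3 knockout by a log2 difference of -1.22 (SE 0.19, edgeR adjusted p = 0.00307), a call that held without any 1 of the 10 libraries (-1.31 to -1.12). Stat3 in the double knockout exceeded the Smad2 knockout by 0.99 (SE 0.19, edgeR adjusted p = 0.00427), and by 0.49 with the length offset (adjusted p = 0.0632).

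Between WT day 4 and day 0, Stat3 fell by 0.52 on the log2 scale of counts (SE 0.19, edgeR adjusted p = 0.0454). The TPM values of Stat3 gave the opposite sign, 0.61 (limma on log2(TPM + 1), adjusted p = 0.044), with 14.5 and 20.6 TPM in WT at day 4, against 9.16 and 13.2 TPM at day 0. The median of all genes moved by 0.63 on that scale, and relative to it the Stat3 value was -0.02. The count-based call was lost in 9 of the 10 leave-one-out fits (adjusted p up to 0.2, without WT day 0 replicate 2), all but the one without WT day 4 replicate 2. Stat5a, a neighbouring STAT gene on the opposite strand, overlaps Stat3 at their ends only. Stat3 reaches down to base 100885098 of chromosome 11, and Stat5a ends at base 100885169. All of Stat5a had 120 to 291 expected counts per library.

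Socs3, the feedback inhibitor, had the widest range of the 10 genes. It stood at 32.8 and 31.0 CPM in the double knockout, 23.1 and 51.3 CPM in the Smad2 knockout, 20.7 and 29.7 CPM in the Smad3 knockout, 6.29 and 13.3 CPM in WT at day 4, and 120 and 151 CPM in WT at day 0. All 6 knockout libraries lay between the WT libraries of day 4 and those of day 0. In WT at day 4 Socs3 was 13.8-fold lower than at day 0, with a log2 fold change of -3.79 (SE 0.46, edgeR adjusted p = 0.00025), and the call held without any 1 of the 10 libraries (-4.43 to -3.39). Relative to WT at day 4, Socs3 rose in the double knockout by 1.70 (SE 0.43, edgeR adjusted p = 0.0188) and in the Smad2 knockout by 1.92 (SE 0.43, edgeR adjusted p = 0.009). The first of these was lost without double knockout replicate 1 (1.65, adjusted p = 0.088) or replicate 2 (1.74, 0.0743). The second was lost without Smad2 knockout replicate 2 (1.23, 0.0579), and the TPM values gave 1.02 (limma on log2(TPM + 1), adjusted p = 0.0521). Relative to the median of all genes that TPM value was 1.53. In the Smad3 knockout the log2 difference of Socs3 was 1.36 (SE 0.42, edgeR adjusted p = 0.161). It was 1.70 within the first and 1.15 within the second name series, and it was called with the series as a block (1.43, edgeR adjusted p = 0.0287) and without WT day 4 replicate 2 (2.00, 0.0267). The double knockout value was 1.32 without WT day 4 replicate 1, the lowest library, and 2.34 without WT day 4 replicate 2. The Socs3 levels of the knockouts were not called different from each other (edgeR adjusted p = 0.689 for the double against the Smad2 knockout, 0.641 for the double against the Smad3 knockout and 0.314 for the Smad2 against the Smad3 knockout). All 3 knockouts were below WT day 0, by log2 differences of -2.09 (SE 0.43, edgeR adjusted p = 0.00288) in the double, -1.87 (SE 0.42, 0.0139) in the Smad2 and -2.43 (SE 0.43, 0.00149) in the Smad3 knockout. The Smad2 knockout call was lost without WT day 0 replicate 1 (-2.02, adjusted p = 0.0525), WT day 0 replicate 2 (-1.69, 0.0771) or Smad2 knockout replicate 1 (-1.40, 0.0836).

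The Pim genes encode serine/threonine kinases that promote survival and growth. Pim1 stood at 67.6 and 51.4 CPM in the double knockout, 59.0 and 75.0 CPM in the Smad2 knockout, 50.1 and 51.9 CPM in the Smad3 knockout, 44.3 and 55.2 CPM in WT at day 4, and 94.9 and 98.6 CPM in WT at day 0. Day 0 was above every day 4 library. In WT at day 4 Pim1 fell relative to day 0 by 0.96 on the log2 scale (SE 0.20, edgeR adjusted p = 0.00366), but the TPM values gave -0.12 (limma on log2(TPM + 1), adjusted p = 0.627) and -0.76 relative to the median of all genes. No knockout differed from WT at day 4 by the test: the log2 differences of Pim1 were 0.26 (SE 0.20), 0.43 (SE 0.20) and 0.03 (SE 0.20) in the double, Smad2 and Smad3 knockouts, with edgeR adjusted p = 0.392, 0.121 and 0.957. Without WT day 4 replicate 2 the Smad2 knockout value passed (0.60, edgeR adjusted p = 0.0477).

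Pim3 stood at 105 and 68.3 CPM in the double knockout, 125 and 199 CPM in the Smad2 knockout, 75.4 and 114 CPM in the Smad3 knockout, 38.3 and 94.5 CPM in WT at day 4, and 165 and 212 CPM in WT at day 0. Libraries of 1 group were far apart for Pim3, most of all in WT at day 4. Pim3 fell in WT at day 4 relative to day 0 by 1.50 on the log2 scale (SE 0.43, edgeR adjusted p = 0.0159), a call lost without WT day 0 replicate 2 (-1.31, adjusted p = 0.0781) and on the TPM scale (-0.78, limma adjusted p = 0.137). Relative to the median of all genes the TPM value was -1.41. Pim3 rose in the Smad2 knockout relative to WT by 1.29 (SE 0.43, edgeR adjusted p = 0.0416). This call was lost in 7 of the 10 leave-one-out fits (adjusted p up to 0.21, without Smad2 knockout replicate 2; also without Smad2 knockout replicate 1, WT day 4 replicate 1 or any 1 library of the double knockout or of day 0), and the TPM value was 0.66 (limma adjusted p = 0.218). Relative to the median of all genes that TPM value was 1.17. Without WT day 4 replicate 2 the edgeR value was 2.08. In the double and Smad3 knockouts the log2 differences of Pim3 from WT were 0.38 (SE 0.42, edgeR adjusted p = 0.558) and 0.51 (SE 0.42, edgeR adjusted p = 0.573), and without WT day 4 replicate 2 the double knockout value passed (1.17, 0.0444).

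**Figure D2:**
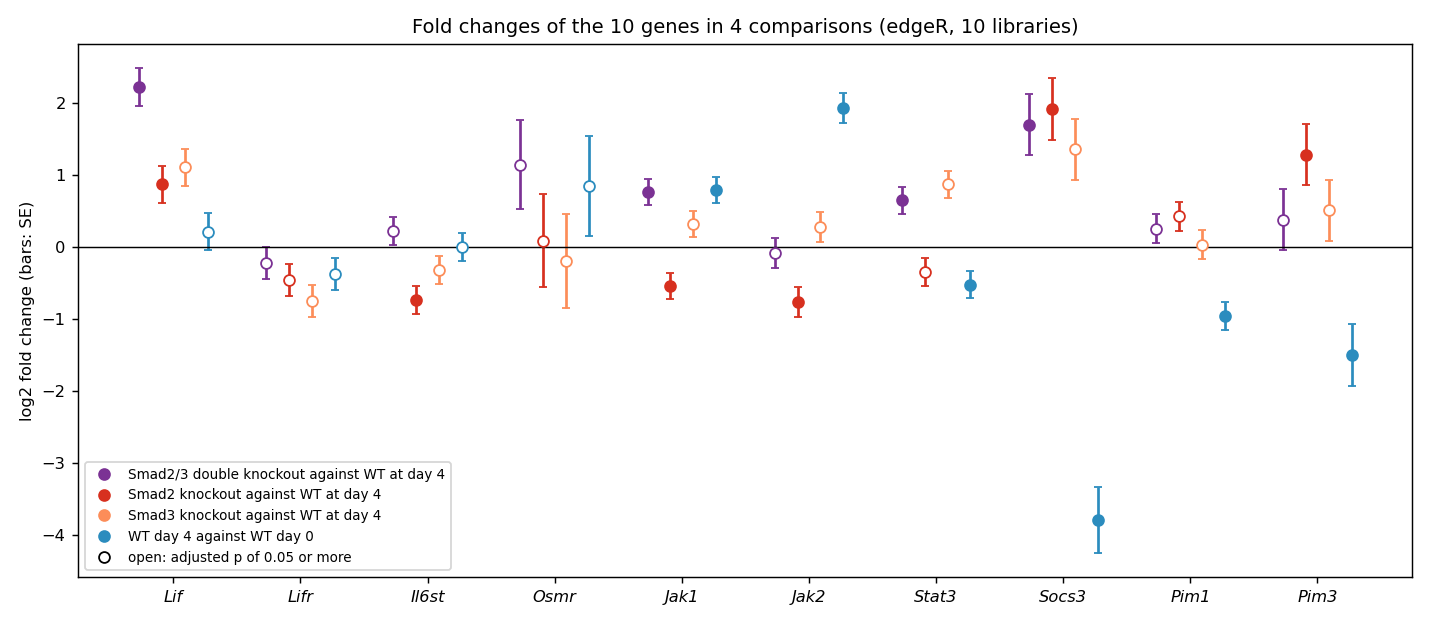
Log2 fold changes (vertical axis) of the 10 genes in 4 comparisons, with SE bars; filled points have an edgeR adjusted p under 0.05 over all 19470 genes and open points do not. Lif in the double knockout (2.22) and Socs3 in the double knockout (1.70) and Smad2 knockout (1.92) stand above 0, and Socs3 between WT day 4 and day 0 is the lowest point (-3.79).

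Counted over the 10 genes, the double knockout against WT called 4 higher (Lif, Jak1, Stat3 and Socs3) and none lower, where 23.1% of all tested genes were called, 10.8% higher and 12.3% lower. Without either double knockout library 1 gene, Lif, was called. The median log2 fold change of the 10 genes was 0.52, and that of all tested genes was -0.05. The Smad2 knockout against WT called 3 higher (Lif, Socs3 and Pim3) and 3 lower (Il6st, Jak1 and Jak2), where 35.5% of all tested genes were called, 15.4% higher and 20.1% lower. With these groups fitted alone 1 gene, Socs3, was called, and 1 was called without WT day 4 replicate 1 (Socs3), Smad2 knockout replicate 1 (Socs3) or Smad2 knockout replicate 2 (Il6st). The median was -0.13, and -0.01 for all genes. The Smad3 knockout against WT called 0 of the 10 genes with edgeR, where 0.555% of all tested genes were called. At an unadjusted edgeR p under 0.05 there were 4 (Lif, Lifr, Stat3 and Socs3) among 3345 genes, and DESeq2 called 3 (Lif, Stat3 and Socs3). Without WT day 4 replicate 2, edgeR called 4 (Lif, Lifr, Stat3 and Socs3). These 3 comparisons share the same 2 WT libraries. WT day 4 against day 0 called 2 higher (Jak1 and Jak2) and 4 lower (Stat3, Socs3, Pim1 and Pim3), where 52.1% of all tested genes were called, 28.9% higher and 23.2% lower. The libraries of both groups did not overlap for 6 of the 10 genes in the double knockout against WT (59.7% of all tested genes), 8 in the Smad2 knockout (64%), 6 in the Smad3 knockout (47.6%) and 8 in WT day 4 against day 0 (76.3%). In bulk RNA, fewer cells that express a gene and less of its RNA per cell cannot be told apart.

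Between the knockouts, the double knockout exceeded the Smad2 knockout in 5 of the 10 genes (Lif, Il6st, Jak1, Jak2 and Stat3), where 39.6% of all tested genes were called, 20.5% higher and 19.1% lower. The log2 difference was largest for Lif (1.35) and Jak1 (1.31, SE 0.18, edgeR adjusted p = 0.00113). This comparison too ran with length (rho 0.44). With the length offset 3 of the 10 genes were called, among them Lif (0.96, edgeR adjusted p = 0.018) and Jak1 (0.64, 0.0179). The other was not called without the offset, and its direction is not given here. Il6st (0.15, 0.531), Stat3 (0.49, 0.0632) and Jak2 (-0.02, 0.959) lost the call. The Smad2 knockout was lower than the Smad3 knockout in 3 genes (Jak1 -0.86, Jak2 -1.04 and Stat3 -1.22), where 33.6% of all tested genes were called, 15.7% higher and 17.9% lower. With the length offset Jak1 (-0.12, adjusted p = 0.63) and Jak2 (-0.27, adjusted p = 0.352) lost the call, and 1 gene, Stat3, was called without Smad3 knockout replicate 1. Each knockout was also set against WT at day 0, with the day 0 libraries shared by these 3 comparisons. The double knockout called 4 of the 10 genes higher (Lif 2.44, Jak1 1.56, Jak2 1.85 and Osmr 2.00) and 4 lower (Lifr -0.60, Socs3 -2.09, Pim1 -0.70 and Pim3 -1.12), where 55.4% of all tested genes were called, 29.4% higher and 26% lower. On log2(TPM + 1) the value of Lifr was 0.17 (limma adjusted p = 0.622) and that of Pim1 0.30 (0.224), both of the opposite sign, and that of Pim3 was -0.12 (0.824), where the median of all genes moved by 0.77. Osmr had only 8 and 7 expected counts in the day 0 libraries. Its call was lost without day 0 replicate 1 (2.19), day 0 replicate 2 (1.82) or double knockout replicate 2 (1.60). With the length offset the Osmr value was 1.16 (edgeR adjusted p = 0.185). The count of 8 was 4 without either day 0 library or without double knockout replicate 2. The Smad2 knockout called 2 higher (Lif 1.09 and Jak2 1.17) and 4 lower (Lifr -0.84, Il6st -0.74, Stat3 -0.86 and Socs3 -1.87), where 21.9% were called, 12.6% higher and 9.27% lower, and 1 gene in all, Jak2, was called without either day 0 library or without Smad2 knockout replicate 1. On log2(TPM + 1) Jak2 (0.84, limma adjusted p = 0.0451) and Socs3 (-1.75, 0.0187) remained called. The Smad3 knockout called 3 higher (Lif 1.33, Jak1 1.11 and Jak2 2.22) and 3 lower (Lifr -1.12, Socs3 -2.43 and Pim1 -0.92), where 54.4% were called, 29.7% higher and 24.7% lower. Of these calls, Lifr (-0.17, limma adjusted p = 0.615) and Pim1 (-0.0036, 0.992) were lost on log2(TPM + 1), where the median of all genes moved by 0.70, and Jak1 (0.09, edgeR adjusted p = 0.679) with the length offset. The double against the Smad3 knockout called Lif alone, where 15.5% of all tested genes were called, 7.53% higher and 8.01% lower. It called 3 genes without WT day 4 replicate 1, and 0 without either library of the double or Smad3 knockout (1 or 2 at an unadjusted edgeR p under 0.05). Libraries did not overlap for 7 of the 10 genes in the double against the Smad2 knockout (74.2% of all tested genes), 8 in the double against the Smad3 knockout (69.2%) and 7 in the Smad2 against the Smad3 knockout (71.5%). Against day 0 they did not overlap for 8 genes in the double (84.8%), 8 in the Smad2 (63.6%) and 9 in the Smad3 knockout (84.2%).

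The interaction asks whether the double knockout differed from the libraries labelled Smad3 knockout as the Smad2 knockout differed from WT. It was called for 2 of the 10 genes, where 18.9% of all tested genes were called, 11.3% higher and 7.52% lower. The value was 1.29 (SE 0.28, edgeR adjusted p = 0.0167) for Il6st and 0.98 (SE 0.25, edgeR adjusted p = 0.0294) for Jak1. For Jak1 the log2 difference was 0.44 for the double against the Smad3 knockout (SE 0.18, edgeR adjusted p = 0.135) and -0.54 for the Smad2 knockout against WT. For Il6st these were 0.55 (SE 0.20, edgeR adjusted p = 0.093) and -0.74. With the length offset the interaction was 0.45 (edgeR adjusted p = 0.259) for Il6st and 0.31 (0.402) for Jak1. For Lif it was 0.24 (SE 0.36, edgeR adjusted p = 0.659), for Stat3 0.12 (SE 0.27, 0.776) and for Socs3 -1.58 (SE 0.59, 0.0864). Without either library of the Smad3 or the double knockout 0 of the 10 genes were called (3 to 5 at an unadjusted edgeR p under 0.05), without Smad2 knockout replicate 1 there was 1, and without WT day 4 replicate 2 there were 5.

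In the double knockout, where fold changes did not run with length, all 4 calls held with the length offset and none was added. In the Smad2 knockout the long genes Lifr, Il6st, Jak1, Jak2 and Stat3 changed sign with the offset, while Lif (1.29), Socs3 (2.05) and Pim3 (1.39) remained called higher. The part of transcript length in the Smad2 knockout and day 0 comparisons was not tested beyond this fit. Since the offset is fitted to all genes, it also removes any real difference that runs with length.

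**Figure D3:**
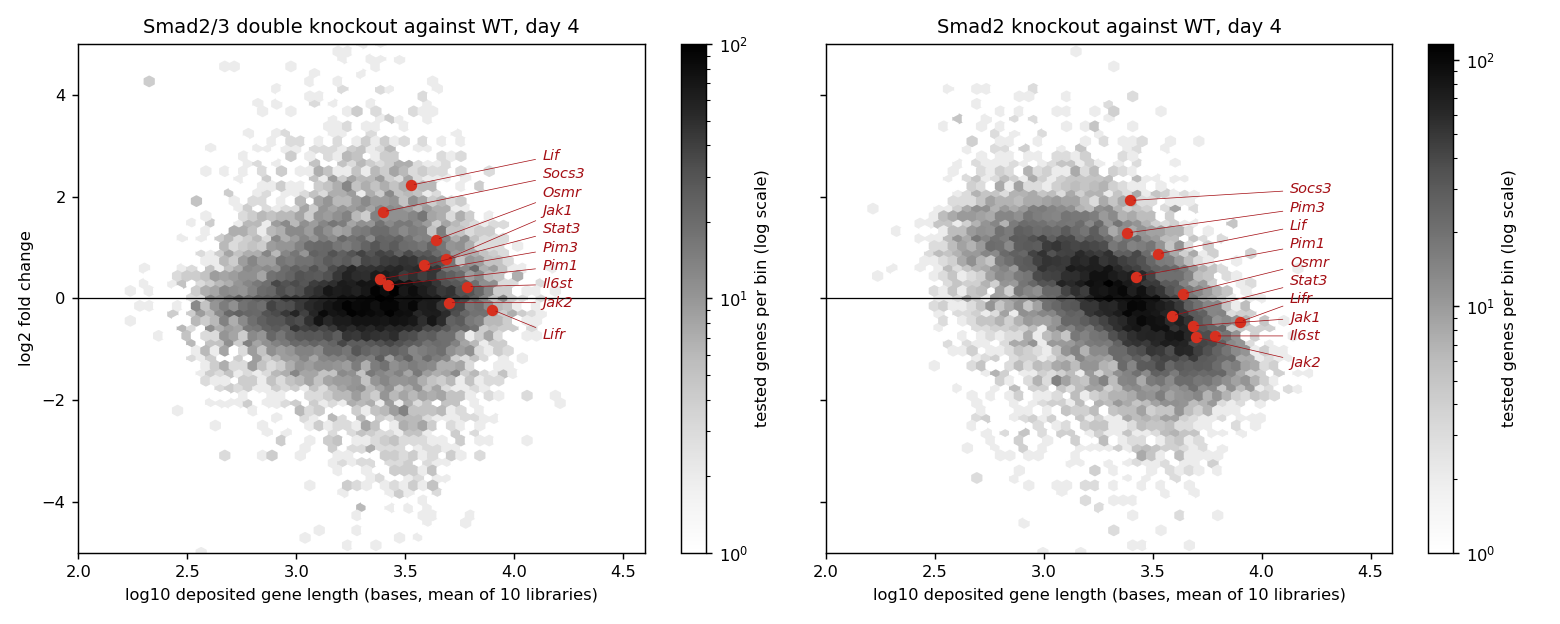
Log2 fold change (vertical axis) against the mean deposited gene length (horizontal axis, log10 of bases) for the tested genes, shaded by their number per bin on a log scale, with the 10 genes in red; left, the double knockout against WT, right, the Smad2 knockout against WT. The cloud is level on the left (rho -0.01) and falls with length on the right (rho -0.50), where Il6st, Jak1, Jak2 and Lifr lie at the long end below 0.

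**Figure D4:**
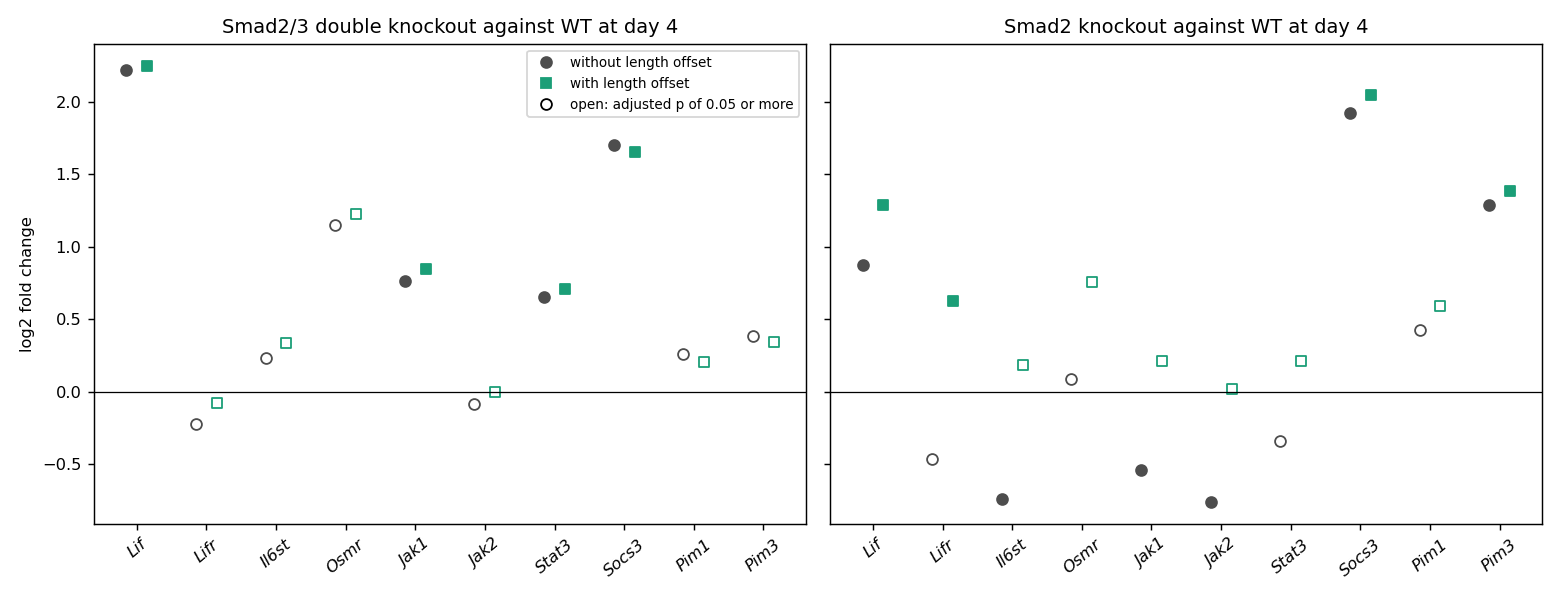
Log2 fold change (vertical axis) of the 10 genes without (circles) and with (squares) the length offset, for the double knockout (left) and the Smad2 knockout (right) against WT at day 4; filled marks have an edgeR adjusted p under 0.05. On the left the marks of each gene lie close together; on the right Lifr, Il6st, Jak1, Jak2 and Stat3 lie below 0 without the offset and above 0 with it.

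Of 44 other genes of the pathway, 42 were tested, and the ligand genes Il6 and Il27 were not. Their values come from the main fit alone, as do those of the marker genes below. The length offset, the TPM scale and fits with a library left out were not examined for them. In the Smad2 knockout and day 0 comparisons, whose fold changes ran with length, the part of length in these values was not tested. In the double knockout against WT 12 were called higher and 5 lower, where 10.8% of all tested genes were called higher and 12.3% lower. Klf4, a naive pluripotency factor downstream of STAT3, averaged 33.5 CPM in the double knockout and 8.53 CPM in WT, a log2 fold change of 1.97 (SE 0.36, edgeR adjusted p = 0.00447). Fos, an AP-1 subunit, rose by 2.33 (edgeR adjusted p = 0.00808) and Bcl2l1, an inhibitor of apoptosis, by 1.11 (0.0108). Pim2, the third Pim kinase gene, went the other way: it averaged 36.6 CPM in the double knockout and 622 CPM in WT, a log2 fold change of -4.09 (SE 0.20, edgeR adjusted p = 1.49e-05). Socs2, another member of the SOCS inhibitor family, fell by 2.23 (edgeR adjusted p = 5.69e-05) and Ccnd1, the cyclin D1 gene, by 1.70 (0.000246).

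In the Smad2 knockout against WT, 8 of the 42 genes were called higher and 6 lower, where 15.4% of all tested genes were called higher and 20.1% lower, so these counts lie near the background. Cebpb, a transcription factor of the acute-phase response, rose by 2.74 (edgeR adjusted p = 0.009), Fos by 2.38 (0.00632) and Il11ra1, the interleukin 11 receptor gene, by 1.83 (0.00419). Pim2 averaged 320 CPM in the Smad2 knockout and 622 CPM in WT, a log2 fold change of -0.96 (SE 0.18, edgeR adjusted p = 0.00443), and Ptpn11 and Socs2 fell by 0.86 and 0.72. In the Smad3 knockout against WT 2 genes were called (0.555% of all tested genes were, 0.123% lower), both lower: Ccnd1 by -1.18 (SE 0.17, edgeR adjusted p = 0.0321) and Socs2 by -1.01 (SE 0.16, 0.0352). In WT at day 4 relative to day 0, 11 rose and 15 fell, where 28.9% of all tested genes were called higher and 23.2% lower. Pim2 rose by 3.02 (SE 0.19, edgeR adjusted p = 1.9e-05), Ptpn11, the gene of the phosphatase SHP2, by 1.77 and Socs7 by 1.20, while the naive factor genes Klf4, Tbx3 and Klf5 fell by 4.20, 2.39 and 1.74. So in WT Pim2 ran opposite to Pim1 and Pim3, whose log2 fold changes were -0.96 and -1.50.

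Marker genes of other cell types moved with some of these levels. The 5 naive stem cell markers summed to 331 and 239 CPM in the double knockout, 228 and 577 CPM in the Smad2 knockout, 75.8 and 82.2 CPM in the Smad3 knockout, 145 and 194 CPM in WT at day 4, and 1410 and 1490 CPM in WT at day 0. The library with the highest naive sum among those of day 4, Smad2 knockout replicate 2, also had the highest Socs3 and Pim3 of day 4. In the Smad3 knockout, by contrast, the naive sum lay below WT at day 4 while Socs3 lay above it. The 7 trophoblast markers (Cdx2, Hand1, Gata3, Elf5, Esx1, Rhox6 and Rhox9) summed to 469 and 590 CPM in the double knockout, 319 and 179 CPM in the Smad2 knockout, 30.7 and 35.6 CPM in the Smad3 knockout, 6.27 and 9.84 CPM in WT at day 4, and 19.0 and 13.1 CPM in WT at day 0. Against WT, the double knockout called 6 of these 7 markers higher, the Smad2 knockout 7 and the Smad3 knockout 4, and every library of these groups had more Lif than WT. The 5 extraembryonic endoderm markers summed to 150 and 95.0 CPM in the double knockout, 36.2 and 34.9 CPM in the Smad2 knockout, 320 and 316 CPM in the Smad3 knockout, 627 and 540 CPM in WT at day 4, and 3.56 and 4.77 CPM in WT at day 0. The 5 primed epiblast markers summed to 297 and 293 CPM in the double knockout, 468 and 544 CPM in the Smad2 knockout, 968 and 978 CPM in the Smad3 knockout, 1859 and 2026 CPM in WT at day 4, and 259 and 303 CPM in WT at day 0. Every knockout lay below WT at day 4 for this sum, the double knockout lowest, and 5, 4 and 1 of the 5 markers were called lower in the double, Smad2 and Smad3 knockouts. The 5 primitive streak markers summed to 6.96 and 5.78 CPM in the double knockout, 155 and 12.7 CPM in the Smad2 knockout, 179 and 200.1 CPM in the Smad3 knockout, 364 and 386 CPM in WT at day 4, and 5.41 and 5.71 CPM in WT at day 0. The libraries of the Smad2 knockout thus stood far apart on the streak sum, with replicate 2 the lower, and replicate 2 was the higher on the naive sum and on Socs3. The 5 hematoendothelial markers summed to 93.6 and 71.0 CPM in the double knockout, 26.0 and 26.9 CPM in WT at day 4, and 67.0 and 77.8 CPM in WT at day 0, with 2 called higher and 1 lower in the double knockout than in WT at day 4. The 5 fibroblast markers summed to 48.5 and 49.1 CPM in the Smad2 knockout and 14.8 and 22.3 CPM in WT at day 4, with 4 called higher and 1 lower. No naive, primed, trophoblast or endoderm marker was at 0 in any library, and 1 streak marker was at 0 in double knockout replicate 2. The part of cell composition in the levels of Lif and Socs3 was not tested.

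**Figure D5:**
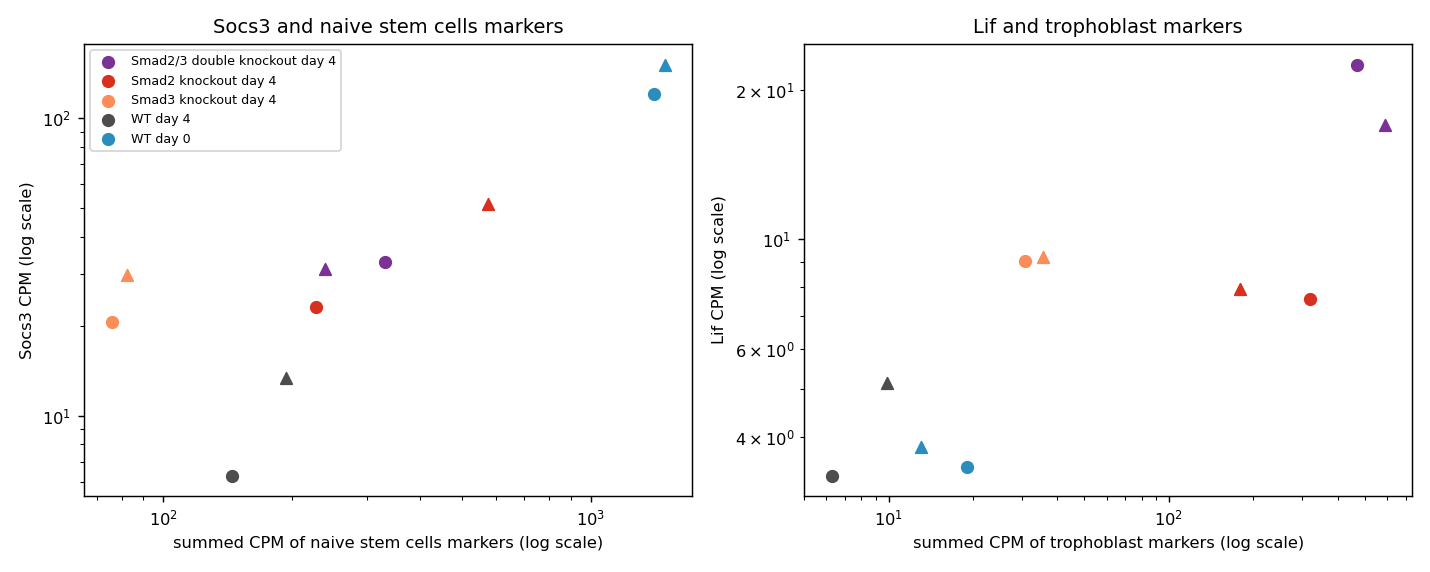
Left, Socs3 against the summed level of 5 naive stem cell markers; right, Lif against the summed level of 7 trophoblast markers; all axes are CPM on a log scale, with circles for replicate 1 and triangles for replicate 2. Day 0 is highest for Socs3 and the naive sum, and the double knockout is highest for Lif and the trophoblast sum (469 and 590 CPM).

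The genes whose log2 CPM ran most like 3 of the pathway genes over the 10 libraries were taken among 11208 tested genes with a mean of at least 5 CPM. The libraries fall into 5 groups, so these correlations describe the group pattern and carry no test. For Socs3 they were Icam1 (Pearson r = 0.978), Fos (0.978) and Tgm1 (0.973). For Stat3 they were A2m (0.941), Klf11 (0.929) and Idua (0.925), and for Lifr they were Nfatc2ip (0.986), Slc4a1ap (0.985) and Mfap1a (0.968).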

How the data were processed

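RNA-seq of 10 mouse libraries was analysed; groups and replicate numbers came from the labels. The authors deposited 1 gene table per library with RSEM's expected counts, TPM, FPKM and transcript lengths, per the file headers. The expected counts are RSEM's estimates per gene (12.2 to 14.6% of genes not whole), as deposited by the authors, and were rounded here. TPM values as the authors deposited them served as an alternative scale, and the deposited FPKM values were left aside. Tools listed in the submitters' processing notes, without role or order, are FastQC 0.11.5, STAR, Bowtie2, HOMER and RSEM, and the build listed is mm10. The annotation version and whether counting used strand are not given in the sources used here. Of 53379 gene identifiers, 50604 matched GENCODE M21 with their version, 53274 without it, and 105 did not match.

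The quasi-likelihood F test of edgeR 4.0.16 (R 4.3.3) was applied to TMM-scaled counts after filterByExpr, which kept 19470 genes. All 5 groups entered 1 fit, leaving 5 residual degrees of freedom. Benjamini-Hochberg adjusted p under 0.05, over all of them and within each comparison, was called. SE is the absolute log2 fold change divided by the square root of F. The steps were tested on counts simulated for the Smad2 knockout against WT at day 4. That simulation held no trend with length, so it does not bear on the length trend of these data. The alternatives were RLE size factors, no filter, the replicate number as a block, the name series of the deposited names as a block, DESeq2 1.42.0, a fit of only the groups compared, log2 TPM with a pseudocount of 1 or 0.1 in limma 3.58.1 (14328 genes, mean TPM at least 1), a per-library length offset (loess of log2 CPM deviations on log2 length), and leaving out each library.

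The 10 genes, the lists and the tests were chosen with earlier results of these data known. Named by rule were the 10 genes, the 3 other pathway genes of smallest adjusted p in each direction, and the 3 genes of highest Pearson r with Lifr, Stat3 and Socs3. Promoters came from RefSeq; protein sequences were not used here.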

Additional observations from a re-analysis of the deposited data

Results flagged for a closer look

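The test of the difference itself, the interaction, passed for 2 of the 10 genes. It asks whether the double knockout differed from the libraries labelled Smad3 knockout as the Smad2 knockout differed from WT. For Il6st it was 1.29 (SE 0.28, edgeR adjusted p = 0.0167). There the log2 difference was 0.55 for the double against the Smad3 knockout and -0.74 for the Smad2 knockout against WT. For Jak1 the interaction was 0.98 (SE 0.25, edgeR adjusted p = 0.0294), and these 2 differences were 0.44 and -0.54. Interaction values of all genes ran with transcript length (rho 0.43 across 19470 genes), and with the length offset they were 0.45 for Il6st (edgeR adjusted p = 0.259) and 0.31 for Jak1 (0.402). Both calls were lost without any 1 library of the Smad3 or the double knockout. Groups of 2 libraries are too small for a check of single outlying libraries.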

How the results depend on the processing

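Of 628 values of single genes under alternatives other than leaving out a library, 536 kept their sign and side of the threshold, 46 lost a call, 17 gained one and 29 changed sign; of 710 with a library left out, these numbers were 579, 111, 8 and 12. With the length offset, WT day 4 against day 0 turned to -0.38 for Lif, -1.25 for Il6st, -0.064 for Osmr and -0.24 for Jak1. The Smad2 knockout against WT turned to 0.63 for Lifr, 0.18 for Il6st, 0.21 for Jak1, 0.018 for Jak2 and 0.21 for Stat3. Pim1 turned to -0.044 in the Smad3 knockout against WT, and Jak2 to 0.00036 in the double knockout against WT and -0.018 against the Smad2 knockout. On log2(TPM + 1) and log2(TPM + 0.1), WT day 4 against day 0 turned for Lifr (0.13 and 0.16) and Stat3 (0.61 and 0.65), the Smad2 knockout against WT for Pim1 (-0.28 and -0.29), the double knockout against WT for Lifr (0.035 and 0.042) and Jak2 (0.10 and 0.11), and the double knockout against day 0 for Lifr (0.17 and 0.20) and Pim1 (0.30 and 0.31). Il6st in WT day 4 against day 0 turned to -0.046 with RLE factors, -0.017 with these groups alone and -0.036 with DESeq2. The cause was not tested.

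With a library left out, values that changed sign ran for WT day 4 against day 0 from -0.12 to 0.45 for Lif and -0.14 to 0.16 for Il6st, and for Osmr from -0.99 to 0.73 in the Smad2 and -0.78 to 0.26 in the Smad3 knockout against WT. In the Smad3 knockout Pim1 ran from -0.090 to 0.20. In the double knockout against WT, Lifr ran from -0.44 to 0.089, Jak2 from -0.30 to 0.22 and Pim3 from -0.071 to 1.17.

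Counts of the 10 genes called moved by over 1.5 times in these cases. For the Smad2 knockout against WT it was 1 with these groups alone (main 6). For the Smad3 knockout against WT (main 0) it was 3 with no filter, 3 with DESeq2 and 2 with the name series as a block. For the Smad2 against the Smad3 knockout (main 3) it was 5 on either TPM scale, and for the double against the Smad2 knockout (main 5) it was 3 with the length offset. For the double against the Smad3 knockout (main 1) it was 4 with these groups alone, 2 with the length offset and 0 on log2(TPM + 0.1), where 1 had an unadjusted limma p under 0.05. Against day 0 the Smad2 knockout (main 6) had 2 on log2(TPM + 1) and 3 on log2(TPM + 0.1), and the double knockout (main 8) had 5 on log2(TPM + 0.1). For the interaction (main 2) it was 5 with no filter, DESeq2 or either TPM scale, and 0 with the length offset, where 2 had an unadjusted edgeR p under 0.05. With a library left out the counts ran from 4 to 6 for WT day 4 against day 0, 1 to 8 for the Smad2, 0 to 4 for the Smad3 and 1 to 5 for the double knockout against WT, 1 to 4 for the Smad2 against the Smad3 knockout, 4 to 6 and 0 to 3 for the double against the Smad2 and Smad3 knockouts, 1 to 7, 6 to 7 and 4 to 8 for the Smad2, Smad3 and double knockouts against day 0, and 0 to 5 for the interaction. Where 1 library is left, it is assumed to vary like the other groups.

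Over all genes, the Smad3 knockout against WT called 108 genes, 1100 with no filter, 777 with DESeq2, 278 with the name series as a block, 54 on log2(TPM + 0.1), 0 with these groups alone (2421 at an unadjusted edgeR p under 0.05) and 3 to 2709 with a library left out. The Smad2 knockout against WT called 6904 genes, 2461 with these groups alone and 3427 with the length offset, and the double knockout against WT called 4506, 2776 with these groups alone and 2743 on log2(TPM + 0.1).

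Replicate numbers are shared by the groups, and no label says that they mark a pairing. Differences between replicates correlated at 0.11 to 0.51 among the 4 groups whose replicates 1 and 2 are of the first and second name series, and at -0.18 to -0.036 with the double knockout, whose libraries are both of the first series, so the numbers were not taken as pairs. The replicate block took the call of 1 value, Lifr in the double knockout against day 0 (-0.60, edgeR adjusted p = 0.0518), and moved no count of the 10 genes called by over 1.5 times. The biological coefficient of variation common to all genes was 0.248, and with 2 libraries a group small differences, and those of the scarce Osmr, may lie below what this depth and spread can show.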

Other observations

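The name series of the deposited names, which the labels do not call a batch, gave every called value of the 10 genes the same sign within each series that holds both groups. Socs3 in the Smad2 knockout differed from WT at day 4 by 1.86 on the log2 scale in the first series and 1.94 in the second, and Socs3 in WT day 4 from day 0 by -4.24 and -3.50. Lif in the double knockout differed from WT by 2.52 in the first series, which holds both double knockout libraries. Comparisons of the double knockout with the other groups are therefore not balanced on the series. Pim3 in the double knockout, which was not called, differed from WT by 1.14 in the first series. Lifr in the Smad2 knockout, which was not called, differed from WT by -0.94 in the first and 0.02 in the second series, and Jak1 in WT day 4 from day 0 by 1.13 and 0.46.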
